A study of Mus musculus with 3 samples.

Results

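The guanylate-binding proteins described here are the 8 genes Gbp2, Gbp3, Gbp4, Gbp5, Gbp6, Gbp7, Gbp8 and Gbp9, of 32285 genes in the single-cell count matrices of mouse flexor digitorum longus (FDL) tendon. They were taken by symbol, and each symbol had exactly 1 row. The family was chosen by a measured value: earlier results of these data showed lower Gbp6 and Gbp2 counts in tenocytes of the Scleraxis-lineage depleted library than in its control, so that contrast is given here as a description only. The 3 libraries were each made from 16 pooled FDL tendons of male and female mice. The 6 M WT library came from Scx-Cre-; DTR F/+ mice, in which the diphtheria toxin receptor stays behind its STOP cassette, and the 6 M DTR library from Scx-Cre+; DTR F/+ littermates, in which Cre under Scleraxis control frees the receptor in Scleraxis-lineage cells. Both received 5 hind paw injections of diphtheria toxin at 3 months, and their tissue was taken at 6 months. The 21 M B6 library came from untreated C57BL/6J mice of 21 months. The labels give C57BL/6J as the strain of all 3 libraries, and 3M as the age of the first 2, which is the age at toxin in the study's methods. The 6 M WT tendons were digested for 120 min and the others for 90 min. With 1 library per group there is no replicate and no test, and genotype, age, mouse line, toxin, digestion time and library cannot be told apart. All intervals are exact 95% intervals that cover counting error only.

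Guanylate-binding proteins are large GTPases of cell-autonomous immunity. Interferon gamma, and more weakly type I interferon, induces them through gamma-activated sites in their promoters and through IRF1, which binds interferon regulatory factor motifs. The proteins assemble on pathogen vacuoles and on bacterial surfaces, where they act with the immunity-related GTPases and feed the caspase-11 inflammasome. Endothelial cells are a well-known site of their induction.

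After the filter on cells, 8357 cells remained in 6 M WT, 6554 in 6 M DTR and 4798 from 21 M B6, with median depths of 12328 to 13008 UMIs (unique molecular identifiers, counted transcripts) and 13 to 15 barcodes shared between any pair of libraries. They held 42403, 9578 and 16249 UMIs of the 8 members, and values of the libraries follow this order wherever none is named. Clusters were built without any Gbp gene and without the interferon lists below, and were named by fixed markers. Tenocyte-like cells numbered 5365, 2591 and 1014, and 7 of 8 tenocyte markers were raised in their cluster. Endothelial-like cells numbered 150, 152 and 117, with all 8 endothelial markers raised, and 56, 44 and 88 cells with both endothelial and mural leading genes and a higher depth stayed unnamed. Levels are given as CPM, the UMIs of a gene per 1000000 UMIs of all cells of a class in a library. A 3' count does not scale with transcript length, so CPM were compared between members without a length term. In the Ensembl-based GENCODE M21 transcripts, 77.8% of the 50-base words in the last 500 bases of Gbp6 also occurred in Gbp10, against 0% for Gbp2, Gbp5 and Gbp7, so the Gbp6 row can miss or gain reads and its level is uncertain.

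Tenocyte-like and endothelial-like cells carried the family at high levels, led by Gbp2 in both but with different members beside it. In 6 M WT the 8 genes summed to 497 CPM in tenocyte-like cells and 819 CPM in endothelial-like cells, a ratio of 1.65 (1.55 to 1.75). Tenocyte-like cells took 85.5% of these UMIs from Gbp2 and Gbp6, whereas those 2 genes made up 35.9% in endothelial-like cells. Gbp2 alone made up 48.1% and 31.0%. In 6 M DTR and 21 M B6, mural-like and nerve-like cells also had a higher sum than tenocyte-like cells, at ratios of 1.25 to 1.78. The unnamed vascular cells had a summed ratio to tenocyte-like cells of 1.66 (1.55 to 1.78) in 6 M WT. In 21 M B6 it was 2.38 (2.25 to 2.52), against 2.15 (2.02 to 2.29) for endothelial-like cells. Gbp4 and Gbp9 were almost absent from tenocyte-like cells, and Gbp8 was found mainly in T cell-like cells. The plot of levels by class and library shows these distributions.

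**Figure D1:**
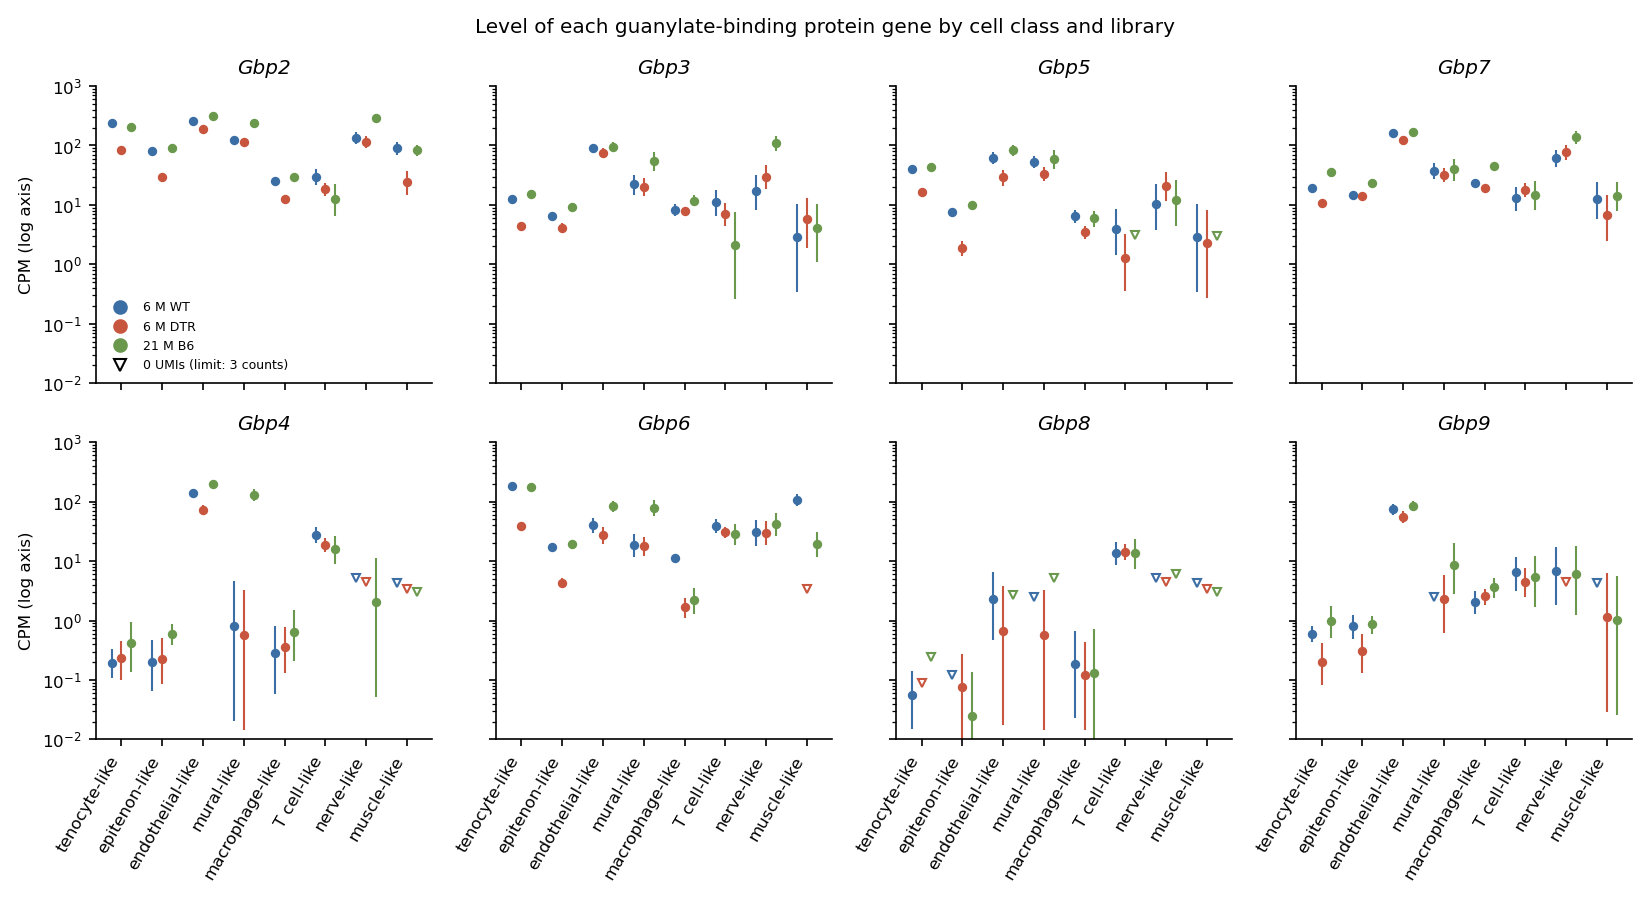
CPM of each of the 8 members on a log axis, for 8 named cell classes and 3 libraries (blue 6 M WT, red 6 M DTR, green 21 M B6). Points are pooled counts of 1 library with exact 95% Poisson intervals, open triangles mark classes with 0 UMIs at the limit that 3 counts would give, and the 6 M DTR points of Gbp2, Gbp5 and Gbp6 in tenocyte-like cells (82.6, 16.6 and 38.6 CPM) lie below those of the other libraries.

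Gbp2, a member that coats pathogen vacuoles, was the most abundant in tenocyte-like cells. It measured 239 CPM in 6 M WT, against 82.6 CPM in 6 M DTR. For 21 M B6 the level was 201 CPM. In endothelial-like cells it measured 254, 192 and 309 CPM, a ratio of 1.06 (0.952 to 1.19) in 6 M WT. That ratio was 1.28 (1.12 to 1.46) in female cells, 0.655 (0.490 to 0.859) in male cells and 0.853 (0.763 to 0.950) with TMM scaling, so no order of the classes is read for Gbp2. After thinning each cell to 2000 UMIs, 23.7% of tenocyte-like and 25.0% of endothelial-like cells of 6 M WT held a Gbp2 UMI, against 4.63% of macrophage-like cells.

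Gbp6 was the second member of tenocyte-like cells, at 186 CPM in 6 M WT, against 38.6 CPM in 6 M DTR, and at 179 CPM in 21 M B6. Endothelial-like cells held less of it, at 40.3, 27.1 and 82.9 CPM, a ratio to tenocyte-like cells of 0.217 (0.163 to 0.284) in 6 M WT. Gbp6 was the only one of the 7 members compared whose interval for that ratio lay below 1. T cell-like cells held 38.9, 30.2 and 28.6 CPM, an order in which neighbouring libraries had overlapping intervals.

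Gbp5, which promotes inflammasome assembly in macrophages, measured 39.4, 16.6 and 42.6 CPM in tenocyte-like cells. Endothelial-like cells held 61.6, 29.2 and 82.9 CPM and mural-like cells 53.2, 33.4 and 59.0 CPM. Macrophage-like cells, in which a role of the protein is best known, held only 6.48, 3.46 and 5.91 CPM. Gbp5 was thus higher in vascular and tenocyte-like cells than in macrophage-like cells in each of the 3 libraries.

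Gbp7 and Gbp3, 2 further members of the chromosome 3 cluster, were higher in endothelial-like than in tenocyte-like cells. Gbp7 measured 159, 125 and 166 CPM in endothelial-like cells, against 19.4, 10.9 and 35.2 CPM in tenocyte-like cells. Gbp3 measured 89.7, 76.0 and 94.4 CPM in endothelial-like cells, against 12.6, 4.36 and 15.3 CPM in tenocyte-like cells. In 6 M WT the endothelial-like over tenocyte-like ratio was 8.21 (7.06 to 9.50) for Gbp7 and 7.14 (5.84 to 8.65) for Gbp3. Nerve-like cells held 17.0, 30.0 and 109 CPM of Gbp3, in 21 M B6 with an interval that overlapped the endothelial-like one. Their Gbp7 level was 61.2, 76.4 and 137 CPM. In the unnamed vascular cells of 6 M WT, Gbp3 was at 107 CPM and Gbp7 at 113 CPM. Gbp7 was also the member with the most counts in macrophage-like cells from 21 M B6 (45.5 CPM) and 6 M DTR (19.4 CPM).

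Gbp4, Gbp9 and Gbp8 of the chromosome 5 cluster were restricted further. Gbp4 measured 138, 72.6 and 201 CPM in endothelial-like cells and 27.9, 19.0 and 15.9 CPM in T cell-like cells, but 0.195, 0.233 and 0.412 CPM in tenocyte-like cells, from 14, 8 and 5 UMIs. Gbp9 measured 74.5, 54.9 and 84.7 CPM in endothelial-like cells and at most 0.990 CPM in tenocyte-like cells. Gbp8 measured 13.6, 14.2 and 13.8 CPM in T cell-like cells, from 21, 44 and 13 UMIs, and 4, 0 and 0 UMIs in tenocyte-like cells, where a count of 0 allows up to 0.0872 CPM (6 M DTR) or 0.247 CPM (21 M B6). The 3 T cell-like levels of Gbp8 had overlapping intervals. Of 7 members with at least 5 CPM in 1 of both 6 M WT classes, 4 were at least 2-fold higher in endothelial-like cells. These were Gbp3, Gbp4, Gbp7 and Gbp9, and 21.5% of 10186 genes were as high over tenocyte-like cells. Gbp4 and Gbp9 passed the filter through endothelial-like cells alone, so their call was fixed by the filter.

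Some class levels rested on few cells. In mural-like cells of 21 M B6, 42 of the 74 Gbp4 UMIs came from 1 of 55 cells, and the 128 CPM there stood against 0.818 and 0.576 CPM in the other libraries, each from 1 UMI. In muscle-like cells of 6 M WT, Gbp6 had 75 UMIs in 6 cells, of which the highest held 37. The 6 M WT endothelial-like Gbp4 count was spread over 58 of 150 cells, and its highest cell held 33 of 181 UMIs. Members were also unevenly spread over tenocyte-like cells: the 10% of cells with the most member UMIs held 62.3%, 73.2% and 64.8% of them, while the deepest 10% of cells held 17.8%, 18.4% and 19.3% of all UMIs.

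Promoter windows of 300 bases, which end shortly after the gene start, were at hand for 4 of the 8 members, Gbp2, Gbp3, Gbp5 and Gbp7, all on the plus strand of chromosome 3 (RefSeq sequences, build GRCm38.p6, which may not be the build the counts were made on). They are shown because these members were counted together in the same cells and the motifs of the inducing factors can be read in them. Gbp2 lies at chr3:142620413-142620712, Gbp5 at chr3:142496684-142496983, Gbp7 at chr3:142530086-142530385 and the first of the 2 Gbp3 windows at chr3:142559794-142560093. Capitals mark matches to TTCNNNGAA, the gamma-activated site, or to GAAANNGAA, an interferon regulatory factor core, searched on both strands.
Gbp2: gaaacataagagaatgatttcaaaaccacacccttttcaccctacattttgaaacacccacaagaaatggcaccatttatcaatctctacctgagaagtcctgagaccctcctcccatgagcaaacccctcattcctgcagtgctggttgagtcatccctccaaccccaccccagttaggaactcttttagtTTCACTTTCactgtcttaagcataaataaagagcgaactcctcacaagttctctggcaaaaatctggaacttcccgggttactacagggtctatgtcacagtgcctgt
Gbp5: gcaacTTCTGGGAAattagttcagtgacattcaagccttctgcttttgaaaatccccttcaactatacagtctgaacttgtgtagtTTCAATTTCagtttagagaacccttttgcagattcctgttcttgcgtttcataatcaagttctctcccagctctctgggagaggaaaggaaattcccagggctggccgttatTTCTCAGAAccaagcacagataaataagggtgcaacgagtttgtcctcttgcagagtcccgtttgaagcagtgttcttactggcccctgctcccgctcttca
Gbp7: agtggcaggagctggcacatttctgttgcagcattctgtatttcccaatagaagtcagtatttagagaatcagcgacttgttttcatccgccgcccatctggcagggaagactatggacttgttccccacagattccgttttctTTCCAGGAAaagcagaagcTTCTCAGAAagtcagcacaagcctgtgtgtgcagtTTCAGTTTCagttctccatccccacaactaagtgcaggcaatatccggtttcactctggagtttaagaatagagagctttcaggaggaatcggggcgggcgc
Gbp3: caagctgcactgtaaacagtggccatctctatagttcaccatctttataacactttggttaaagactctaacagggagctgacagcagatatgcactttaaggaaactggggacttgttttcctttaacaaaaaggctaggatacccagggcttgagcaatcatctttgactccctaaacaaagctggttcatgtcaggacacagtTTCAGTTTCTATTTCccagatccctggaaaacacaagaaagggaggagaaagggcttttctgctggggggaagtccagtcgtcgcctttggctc
The interferon regulatory factor core occurred once in Gbp2, starting 58 bases upstream of the gene start, once in Gbp5 at 164 bases, once in Gbp7 at 52 bases, and 2 times, in overlapping copies at 44 and 38 bases, in Gbp3. The gamma-activated site occurred in Gbp5 at 245 and 52 bases and in Gbp7 at 106 and 87 bases, and its letters were not in the Gbp2 and Gbp3 windows. No match of one motif overlapped a match of the other. The second Gbp3 window, at chr3:142560106-142560405, held neither. Over all 32851 promoter windows of this length, 8.30% held the gamma-activated site, 8.56% the interferon regulatory factor core and 1.07% both. The matches are descriptions of the letters and not evidence of binding.

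The members were lower in tenocyte-like cells of 6 M DTR than of 6 M WT. Their sum was 154 CPM against 497 CPM, a ratio of 0.309 (0.3003 to 0.318). The ratio was 0.208 (0.197 to 0.220) for Gbp6, 0.346 (0.333 to 0.3603) for Gbp2, 0.347 (0.290 to 0.413) for Gbp3, 0.420 (0.383 to 0.460) for Gbp5 and 0.562 (0.500 to 0.630) for Gbp7. Of the 5 members with at least 5 CPM in 1 of both libraries, 4 had a ratio of at most 0.5, where 1.42% of 9342 genes did. Of these 4, Gbp3 passed the filter through 6 M WT alone, which favours a low ratio. Gbp4, Gbp8 and Gbp9 did not pass that filter in tenocyte-like cells. Their levels there were at most 0.597 CPM in these 2 libraries. Since the family was selected for this contrast, the count is a description.

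The lower level in 6 M DTR was measured in cells of both sexes, read from Xist and Y chromosome genes, and in both sub-clusters of the tenocytes. The summed ratio to 6 M WT was 0.309 (0.295 to 0.323) in female and 0.325 (0.310 to 0.340) in male tenocyte-like cells. Gbp6 alone gave 0.222 and 0.220. Tenocyte-like cells fell into a sub-cluster led by Mstn, Kera, Ucma and Tnmd and another led by Slurp1, Egln3, Serpinb7 and Vcan. Each was compared with the other only, not with the other classes. In the second, no tenocyte marker was 2-fold above the first sub-cluster, while the epitenon markers Ccn3 and Clec3b were. It therefore stayed unnamed on its own, which does not mean that it lacked tenocyte markers. In the first, the sum was 692, 208 and 603 CPM. In the second it was 202, 64.3 and 149.8 CPM. The members were therefore more abundant in the Kera and Tnmd cells in every library, and the 6 M DTR over 6 M WT ratio was 0.3005 and 0.318 in the 2 sub-clusters. The share of tenocyte-like cells with any member after thinning was 33.0% (31.7% to 34.3%) in 6 M WT and 30.2% (27.4% to 33.1%) in 21 M B6, with 16.2% (14.8% to 17.7%) in 6 M DTR.

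Across the other classes the summed ratio of 6 M DTR to 6 M WT ranged from 0.186 in muscle-like cells to 1.05 in nerve-like cells. In epitenon-like cells the sum was 54.7 CPM against 127 CPM in 6 M WT, a ratio of 0.430 (0.403 to 0.458). Of the 5 members with at least 5 CPM in 1 of both libraries, 3 had a ratio of at most 0.5. These were Gbp2, Gbp5 and Gbp6, where 1.77% of 9728 genes had such a ratio. Gbp5 and Gbp6 passed that filter through 6 M WT alone, which favours a low ratio. Gbp7 in these cells gave 0.963 (0.831 to 1.12). In endothelial-like cells the sum was 578 CPM against 819 CPM, a ratio of 0.706 (0.644 to 0.773), and 1 of 7 members, Gbp5, was at or under 0.5, where 5.50% of 9669 genes were. In macrophage-like cells the ratio was 0.624 (0.566 to 0.689). Gbp2 at 0.492 and Gbp6 at 0.151 were at or under 0.5 among 5 members, where 1.92% of 9126 genes were. Gbp6 passed the filter there through 6 M WT alone. T cell-like cells gave 0.779 (0.656 to 0.925). Muscle-like cells gave 0.186 (0.125 to 0.270), 39.9 CPM against 214 CPM, where 75 of the 151 member UMIs of 6 M WT were the Gbp6 counts of 6 cells named above. In 6 M WT, Gbp2 and Gbp6 of muscle-like cells and Gbp2 of T cell-like cells lay inside the tenocyte marker ranges given below. The interval included 1 in mural-like cells, at 0.865 (0.743 to 1.01), and in nerve-like cells, at 1.05 (0.840 to 1.31). The plot of ratios to 6 M WT shows the order tenocyte-like, epitenon-like, macrophage-like, endothelial-like, in which the intervals of neighbouring classes overlapped only for the last pair.

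**Figure D2:**
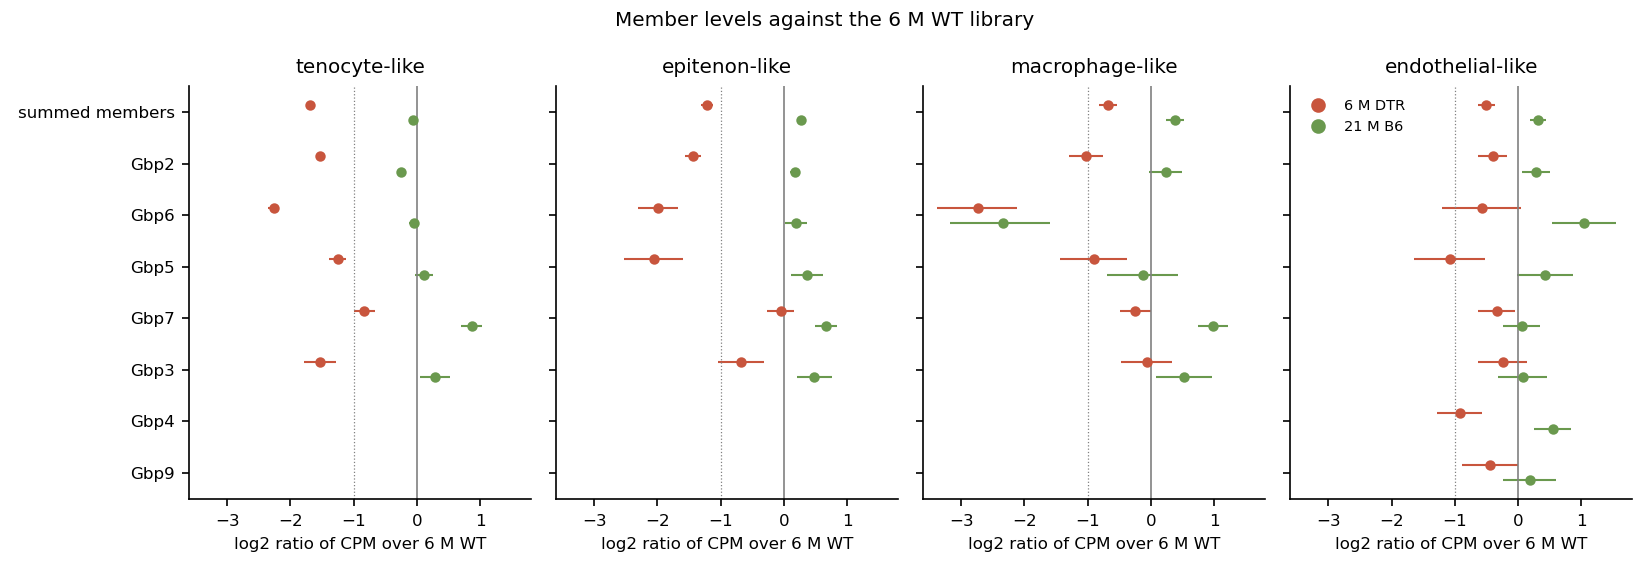
Log2 ratio of CPM over 6 M WT for the summed members and for 7 of them in 4 cell classes, red for 6 M DTR and green for 21 M B6, with exact 95% intervals for counting error; genes under 5 CPM in both libraries are left out, and the dotted line marks a ratio of 0.5. In tenocyte-like cells the red points lie from 0.208 for Gbp6 to 0.562 for Gbp7 as ratios, left of all green points.

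Free RNA from broken tenocytes can put member counts into other cells, so the level of the tenocyte markers is given beside the members. The markers differed widely within some classes, so their level is a guide and not a measure of free RNA. In macrophage-like cells of 6 M WT the 8 tenocyte markers stood at 3.30% to 5.16% of their tenocyte-like CPM, and Gbp6 stood at 5.97%, close to that range. In 6 M DTR the markers stood at 1.72% to 2.62% and Gbp6 at 4.32%, and in 21 M B6 at 0% to 1.48% and 1.22%. Gbp6 in macrophage-like cells was thus at or near the level of free tenocyte RNA, and the part of free RNA in its ratios between libraries in that class was not tested. Gbp2 in the same cells stood at 10.7%, 15.2% and 14.9% and Gbp7 at 119%, 179% and 129%, above the markers in each library. In epitenon-like cells the marker range was wide, at 4.86% to 38.1% in 6 M WT with a median of 5.46%, and Gbp2 at 33.6% and Gbp6 at 9.13% lay inside it. In 6 M DTR the range was 0.872% to 37.7% (median 11.9%), with Gbp2 at 35.8% and Gbp6 at 11.1%. In 21 M B6 it was 0.134% to 25.1% (median 1.69%), with Gbp2 at 45.2%, above every marker, and Gbp6 at 10.8%. In muscle-like cells of 6 M WT the markers stood at 4.14% to 77.7% (median 23.2%). Gbp2 at 37.4% and Gbp6 at 57.3% lay inside that range. In 6 M DTR the muscle-like range was 0% to 11.2%, with Gbp2 at 29.0% and Gbp6 at 0%. In 21 M B6 it was 2.75% to 24.9%, with Gbp2 at 41.6% and Gbp6 at 10.8%. The part of free RNA in the muscle-like ratios between libraries was not tested. In endothelial-like cells the markers reached at most 1.63% in any library, far below every member shown in the plot of member level beside the tenocyte markers.

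**Figure D3:**
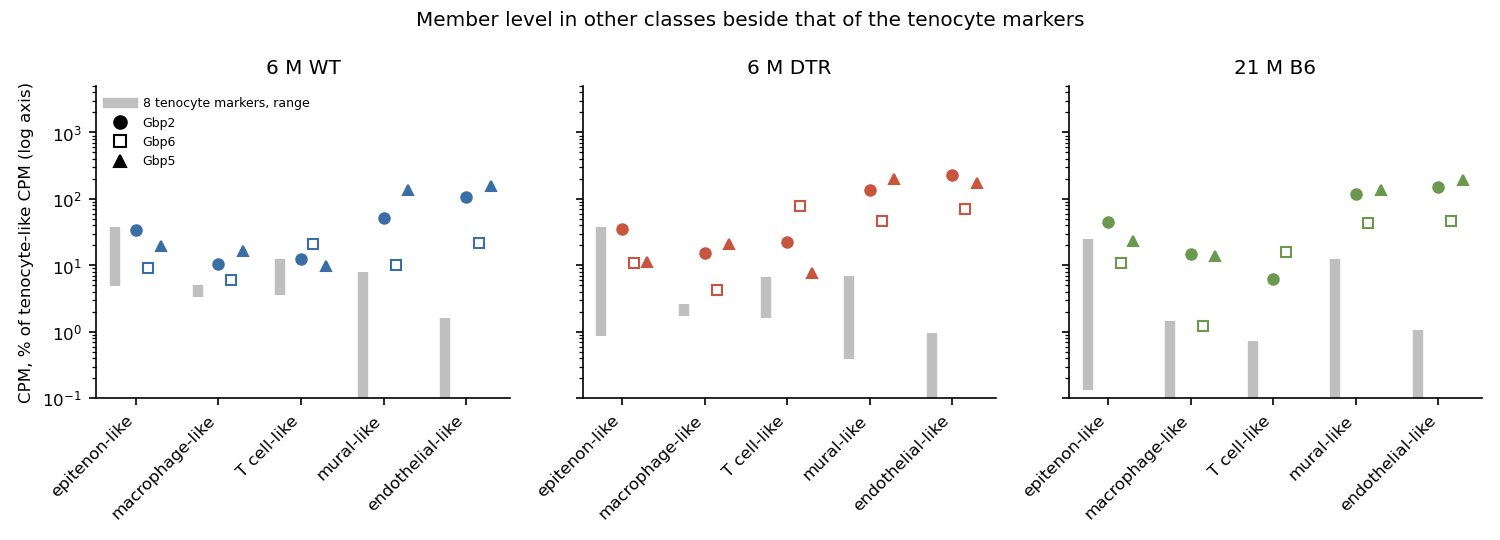
CPM of Gbp2, Gbp6 and Gbp5 in 5 classes as a percent of their CPM in tenocyte-like cells of the same library, on a log axis; grey bars span the 8 tenocyte markers from the lowest (drawn at 0.1% where lower) to the highest. Gbp6 in macrophage-like cells lies above the grey bar in 6 M WT (5.97%) and 6 M DTR (4.32%) and within it in 21 M B6 (1.22%). The endothelial-like points lie above their grey bar. Gbp5 in T cell-like cells of 21 M B6 was at 0 and has no point.

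In tenocyte-like cells of 21 M B6 the members kept levels near those of 6 M WT. The sum was 474 CPM, a ratio to 6 M WT of 0.955 (0.928 to 0.982). It turned above 1 with a stricter mitochondrial filter (1.05), in male cells (1.09) and with TMM scaling (1.10). It was lower in female cells (0.857) and within the Kera (0.871) and Slurp1 (0.740) sub-clusters, so no direction is read. The Kera sub-cluster, in which the members were higher, held 722 of 1014 cells in 21 M B6 and 3244 of 5365 in 6 M WT. The median ratio over all 9202 genes tested was 0.841, and Gbp2 at 0.840 (0.805 to 0.877) stood at that median, with 49.8% of genes lower. Gbp7, at 1.82 (1.63 to 2.03), had 95.6% of genes lower. Gbp6 gave 0.964 (0.920 to 1.01), but 1.26 (1.16 to 1.37) in male cells and 1.11 (1.06 to 1.16) with TMM scaling. The others were Gbp5 at 1.08 (0.982 to 1.19) and Gbp3 at 1.22 (1.04 to 1.43). None of the 5 members reached 0.5 or less, where 2.62% of genes did.

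The summed level of 21 M B6 was above that of 6 M WT for 5 of the 7 other named classes. In epitenon-like cells the sum was 154 CPM against 127 CPM in 6 M WT, a ratio of 1.21 (1.16 to 1.26), with the median of all genes at 0.821; no member was at or under 0.5, where 2.72% of 9623 genes were. In endothelial-like cells it was 1020.3 CPM against 819 CPM, a ratio of 1.25 (1.15 to 1.35), led by Gbp6 at 2.06 (1.45 to 2.94) and Gbp4 at 1.46 (1.20 to 1.79); no member was at or under 0.5, where 10.7% of 9846 genes were. In macrophage-like cells Gbp7 gave 1.97 (1.67 to 2.33), and only Gbp6 was at or under 0.5, where 3.75% of 9221 genes were. Gbp6 passed the filter there through 6 M WT alone, and in 21 M B6 it lay inside the tenocyte marker range given above. In mural-like and nerve-like cells the sums were 604 and 595 CPM against 255 and 260 CPM, from 55 cells of each class in 21 M B6. T cell-like and muscle-like cells were lower, at 93.2 CPM against 145 CPM, a ratio of 0.645 (0.498 to 0.829), and at 122 CPM against 214 CPM, a ratio of 0.571 (0.445 to 0.730). In 6 M WT, Gbp2 of T cell-like cells and Gbp2 and Gbp6 of muscle-like cells lay inside the tenocyte marker ranges given above.

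The members were found in the same tenocyte-like cells more often than the product of their single shares. In cells of 6 M WT thinned to 2000 UMIs, Gbp2 was in 23.7%, Gbp6 in 14.8% and Gbp5 in 5.61% of 5365 cells. Gbp2 and Gbp6 were together in 8.05% against a product of 3.51%, a ratio of 2.30. Gbp2 and Gbp5 gave 2.76 and Gbp5 and Gbp6 gave 3.16, so that the median of the 3 pairs was 2.76. At least 3 members were in 3.63% (3.15% to 4.17%) of cells, against 0.478% had the members been independent. In 6 M DTR at least 3 members were in 11 of 2591 cells, 0.425% (0.212% to 0.758%) against 0.0361%, and in 21 M B6 in 4.05% (2.92% to 5.45%) against 0.462%. In 6 M DTR, Gbp2 with Gbp6 gave 3.37 and Gbp5 with Gbp6 gave 3.65. Both pairs were above their product in the library with the fewest member counts, from 42 and 11 cells. Gbp5 and Gbp6 were each in too small a share of these cells to enter a median of pairs. No median is therefore given for 6 M DTR, and Gbp2 with Gbp5 is not given there. These ratios are over cells of 1 library each, and both sub-clusters of tenocytes are in them.

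In endothelial-like cells the median ratio over 21 pairs was 1.64, 1.51 and 2.03, from a wider set of pairs than in tenocyte-like cells. The pairs of the 6 M WT tenocyte-like median did not share 1 direction between the classes. Gbp2 with Gbp5 gave 2.5 and Gbp2 with Gbp6 gave 1.85 in endothelial-like cells of 6 M WT, below the tenocyte-like ratios. Gbp5 with Gbp6 gave 3.56, above the tenocyte-like ratio of 3.16. These rested on 10, 6 and 5 cells. At least 3 members were in 15.5% (10.1% to 22.4%), 8.55% (4.63% to 14.2%) and 15.4% (9.38% to 23.2%) of cells, against 9.07%, 4.21% and 10.3% under independence. The last of these lies inside its interval, and the other two lie just below theirs. At least 4 members were in 14 of 148 cells of 6 M WT, 1 of 152 of 6 M DTR and 14 of 117 of 21 M B6. These shares were 9.46% (5.27% to 15.4%) against 1.57% under independence, 0.658% (0.0167% to 3.61%) against 0.491% and 12.0% (6.70% to 19.3%) against 1.86%. The first and the last thus lay above independence by more than counting error.

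**Figure D4:**
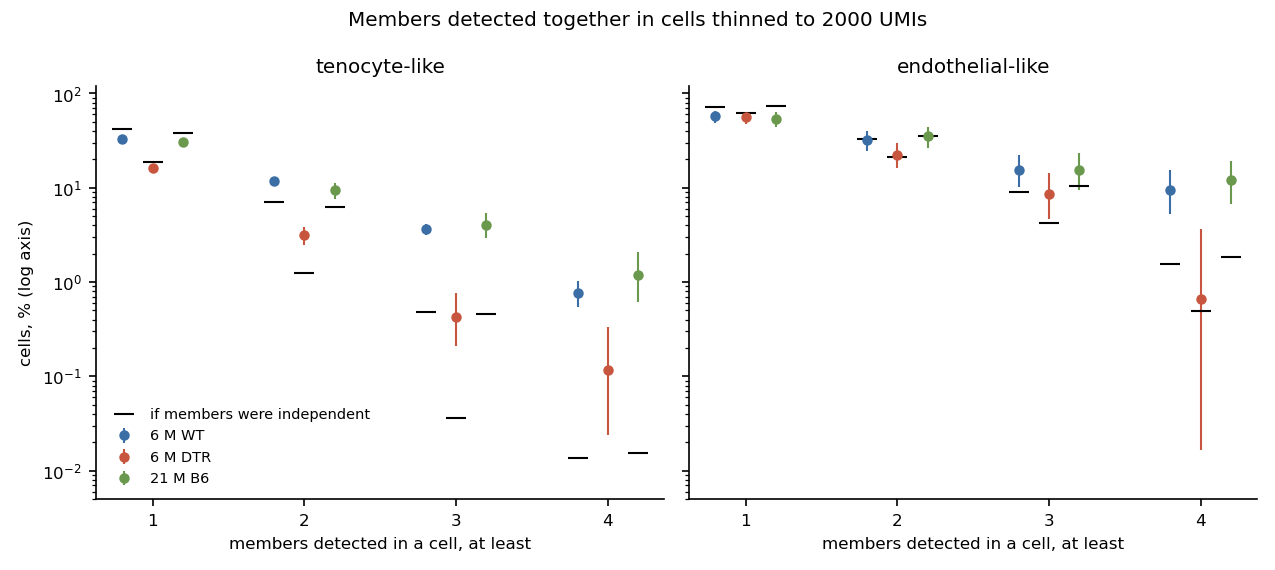
Share of cells, on a log axis, in which at least 1 to 4 members had a UMI after thinning to 2000 UMIs, with exact 95% binomial intervals, in tenocyte-like and endothelial-like cells of 3 libraries; black dashes give the share if members were independent. At 3 or more members the tenocyte-like points of 6 M WT and 21 M B6 (3.63% and 4.05%) lie above their dashes (0.478% and 0.462%).

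Over the 26 points of class and library with at least 50 cells, the genes whose log2(CPM + 1) followed the summed members most closely among 10025 genes were Ifi35 (Pearson r = 0.878), Kif26a (0.859), Irgm1 (0.851), Dennd3 (0.839) and Igtp (0.830). Irgm1 and Igtp are immunity-related GTPases and Ifi35 is an interferon-induced protein. The points share 3 libraries and differ in depth, so r is a description. Over single tenocyte-like cells of 6 M WT the closest of 2381 genes were Ifitm3, an interferon-induced membrane protein (r = 0.384), the metallothioneins Mt2 (0.371) and Mt1 (0.369), Steap4 (0.344) and Sod2, a mitochondrial superoxide dismutase (0.342). Gja1 (0.272), Ccl2 (0.268), Tlr2 (0.266), Cebpd (0.256) and Saa1 (0.255) followed. The r of Mt1 was 0.308 for 6 M DTR, compared with 0.372 for 21 M B6, and that of Ifitm3 was 0.180 and 0.324. All cells were thinned to the same depth, and the correlations are weak.

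The other genes of the interferon pathway were read from lists of known members. For tenocyte-like cells of 6 M DTR, all 4 immunity-related GTPases with at least 5 CPM were lower than in 6 M WT, with a median ratio of 0.525 against 0.347 for the Gbp members and 1.02 for all genes. Irgm1 was at 20.8 CPM against 43.3 CPM. Of 6 type I interferon response genes 5 were lower, 3 of them at or under 0.5, where 1.42% of 9342 genes were. Ifit1, at 3.40 CPM against 16.3 CPM, passed the filter through 6 M WT alone, which favours a low ratio. Of 5 interferon gamma response genes 4 were lower, with Cxcl10 at 35.4 CPM against 66.1 CPM. B2m was higher, at 488 CPM against 472 CPM. The interferon gamma receptor chains differed less: Ifngr1 gave a ratio of 0.843 (0.811 to 0.876) and Ifngr2 0.730 (0.683 to 0.780).

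Signal transducers and regulatory factors did not share 1 direction. In tenocyte-like cells of 6 M DTR the 6 transducers had a median ratio to 6 M WT of 0.813, with 4 lower. The 5 regulatory factors tested had a median of 0.791, with 4 lower, 2 of them at or under 0.5, where 1.42% of 9342 genes were. A gene low in 6 M DTR could enter this count through 6 M WT alone. Irf1, an inducer of Gbp genes, was higher, at 212 CPM against 148 CPM, a ratio of 1.43 (1.39 to 1.47). Irf5 and Irf7 were lower, with ratios of 0.233 (0.197 to 0.274) and 0.384 (0.314 to 0.466). The inhibitor Socs3 was at 505 CPM against 290.04 CPM, and the 3 inhibitors tested had a median ratio of 1.10. The 3 inflammasome partners tested had a median of 1.01. All 10 immediate early genes, which respond to handling of cells, were higher in tenocyte-like cells of 6 M DTR, with a median ratio of 1.35, and in 21 M B6 the median ratio was 1.83, with 1 of 10 lower; their part in the member levels was not tested. Interferon gamma itself was counted in T cell-like cells: Ifng had 43 UMIs in 354 cells of 6 M DTR, 3 UMIs in 144 cells of 6 M WT and 0 UMIs in 92 cells of 21 M B6, that is 13.8 (10.0 to 18.6) CPM, 1.95 (0.401 to 5.69) CPM and up to 3.18 CPM, the limit that a count of 0 allows. The library with the most Ifng counts had the lowest tenocyte-like member level, and a relation between them was not tested.

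In 21 M B6 the immunity-related GTPases were further above 6 M WT than the Gbp members were. All 4 immunity-related GTPases tested in tenocyte-like cells were at least 2-fold above 6 M WT, with a median ratio of 3.42, while the Gbp members had a median of 1.08 and none reached 2, where 3.71% of 9202 genes did. Irgm1 was at 157 CPM against 43.3 CPM, a ratio of 3.64 (3.43 to 3.85), and Igtp gave 3.20 (2.81 to 3.64). The type I response list had a median of 1.92 and the interferon gamma response list 2.18. Irf1 was at 323 CPM against 148 CPM. The medians were 0.688 for the receptor chains, 1.402 for the transducers, 1.501 for the regulatory factors, 2.001 for the inhibitors and 0.903 for the inflammasome partners, beside 0.841 for all genes. For 21 M B6, 7 type I and 7 interferon gamma response genes were tested, against 6 and 5 for 6 M DTR. For regulatory factors these counts were 6 against 5, and for inhibitors 4 against 3. The added genes passed the filter through 21 M B6 alone, which favours a high ratio. In epitenon-like cells 5 of 5 immunity-related GTPases were at least 2-fold higher, with a median of 3.57, against 1.28 for the members and with 1.83% of all genes at 2 or above. Only 4 were tested there for 6 M DTR over 6 M WT. The 5 thus held a gene that passed the filter through 21 M B6 alone, which favours a high ratio. In endothelial-like cells 8 of 8 were at least 2-fold higher, with a median of 2.46 against 1.22, where 7.74% of all genes and 1 of 7 members, Gbp6, reached 2. Iigp1 was at 2024 CPM there against 905 CPM in 6 M WT. In endothelial-like cells of 6 M DTR, 7 of 8 immunity-related GTPases were lower than in 6 M WT, with a median of 0.783, beside 0.737 for the members and 0.954 for all genes. These comparisons share the 6 M WT library, and the difference between the gene groups was not tested.

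**Figure D5:**
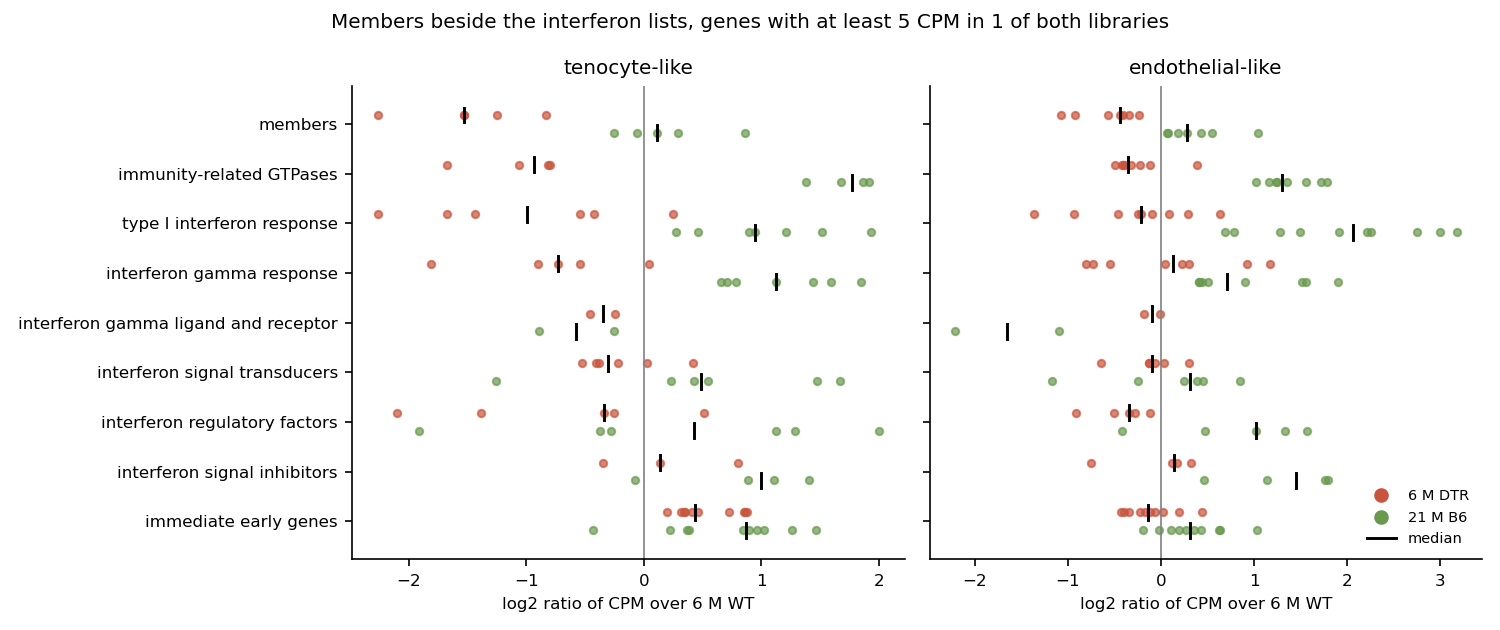
Log2 ratio of CPM over 6 M WT for the Gbp members and 8 gene lists in tenocyte-like and endothelial-like cells, 1 point per gene with at least 5 CPM in 1 of both libraries and a UMI in the numerator, red for 6 M DTR and green for 21 M B6, black bars for medians. In tenocyte-like cells of 21 M B6 the immunity-related GTPases (median ratio 3.42) lie right of the Gbp members (1.08).

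Of the 2 further Gbp rows in the files, Gbp2b on chromosome 3 had 224 UMIs in 176 cells of 6 M WT, 46 UMIs in 43 cells of 6 M DTR and 2 UMIs in 21 M B6. As CPM over all cells this was 1.97 (1.72 to 2.25), 0.535 (0.392 to 0.714) and 0.0304 (0.00368 to 0.110). In tenocyte-like cells it had 190, 26 and 0 UMIs. Gbp2b was thus at or below the limit of 3 counts in 21 M B6, where its neighbour Gbp2 was counted at 201 CPM in tenocyte-like cells. Gbp10 had 6, 2 and 3 UMIs.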

How the data were processed

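Per the labels and the study's methods, the authors pooled 16 FDL tendons per group, digested them with collagenase and made 10x Chromium 3' version 3 libraries, 1 per group. The authors deposited raw UMI counts per gene and barcode. The file header names Cell Ranger 6.0.1 and the submitters' processing notes Cell Ranger 2.1.1; the genome build is not given in the sources used here, nor is the annotation. Deposited totals were 148149903, 123918145 and 92707026 UMIs in 15536, 16099 and 12273 barcodes. The study's filter was applied, 1000 to 5000 genes and up to 10% mitochondrial counts per cell; 27.6%, 43.1% and 56.5% of barcodes exceeded the mitochondrial limit. Cells were integrated and clustered with Seurat 5.3.0 as in the study (20 dimensions, resolution 0.1), leaving out Gbp and interferon list genes, and clusters were named by fixed markers, so classes are rebuilt and not the authors' own. A marker gate agreed for 94.2% of 16275 gated cells. The vascular cluster was split again at resolution 0.1, and endothelial-like cells include a sub-cluster of 29 cells led by Ccl21a, Mmrn1 and Prox1.

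Counts were summed per class and library. Ratios of CPM carry exact 95% intervals from the 2 counts, counting error only; PCR duplicates were already collapsed by UMI. Genes with at least 5 CPM in 1 of both sums entered counts over genes, with 0.5 and 2 as limits of size. A gene low in 1 sum could thus enter through the other alone. A count of 0 allows 3 counts. Co-detection used cells thinned to 2000 UMIs; 9, 5 and 1 shallower cells were left out. No test across samples was possible. On simulated counts the ratio step recovered 100% of 200 changed genes of 9012 for 6 M DTR over 6 M WT. These counts held counting error only, and the changed genes had at least 20 CPM, above Gbp3 and Gbp7 in tenocyte-like cells. The run therefore checked the arithmetic and did not cover variation between cells or libraries. Scrublet (scanpy 1.11.5) marked 1, 6 and 1 cells by its own threshold and so did not work; the 10% of cells with the highest scores were left out as an alternative. TMM factors came from edgeR 4.0.16. The rule for named genes took the 8 members, the interferon gamma ligand and receptor, transducer and regulatory factor lists, up to 4 others per list with the highest CPM, the 5 genes most like the sum over class and library points (at least 20 CPM in 1 point) and the 10 most like it over thinned tenocyte-like cells of 6 M WT (in at least 10% of cells). A gene of the transducer list is not reported here by name. Members and lists were chosen with earlier results of these data known.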

Additional observations from a re-analysis of the deposited data

Results flagged for a closer look

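The search covered tenocyte-like, epitenon-like, endothelial-like, macrophage-like and mural-like cells. For 2 members there, 21 M B6 stood above 6 M WT in one cell class and below it in another. The counting intervals lay on either side of 1, and the difference between classes was not tested. Gbp2 gave a ratio of 1.92 (1.51 to 2.44) in mural-like cells and 0.840 (0.805 to 0.877) in tenocyte-like cells, where the median of all genes was 0.841. The tenocyte-like ratio was 0.964 (0.924 to 1.01) with TMM factors and 0.961 (0.909 to 1.02) with mitochondrial counts of at most 5%. Both intervals included 1, while those of every other run with an interval lay below it. Gbp6 gave 4.15 (2.46 to 7.19) in mural-like cells, from 45 UMIs in 12 of 55 cells, and 0.197 (0.111 to 0.329) in macrophage-like cells. In the latter it stood at 1.22% of its tenocyte-like level, against 0% to 1.48% for the tenocyte markers. Outside the classes searched, Gbp3 gave 6.40 (3.23 to 14.1) in nerve-like cells. In T cell-like cells Gbp3 gave 0.192 (0.0215 to 0.810), from 2 UMIs in 21 M B6, and Gbp2 gave 0.426 (0.206 to 0.818). Gbp6 in muscle-like cells gave 0.182 (0.104 to 0.304). In 6 M WT, Gbp2 of T cell-like cells and Gbp6 of muscle-like cells lay inside the tenocyte marker ranges given above.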

How the results depend on the processing

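No paired analysis was possible because each group is 1 library. For the tenocyte-like sum of 6 M DTR over 6 M WT (0.309), every alternative run stayed below 1, at 0.286 by marker gate, 0.288 without integration, 0.289 with TMM factors and 0.325 in male cells. For 21 M B6 over 6 M WT (0.955) the ratio turned above 1 at 1.05 with mitochondrial counts of at most 5%, 1.09 in male cells and 1.10 with TMM factors, and was 0.917 with at most 4000 genes, 0.857 in female cells, 0.990 as a mean over cells, and 0.871 and 0.740 within the Kera and the Slurp1 sub-cluster, a split chosen after seeing the data. The first sub-cluster held 722 of 1014 cells in 21 M B6 and 3244 of 5365 in 6 M WT. The endothelial-like over tenocyte-like sum in 6 M WT (1.65) was 1.54 by gate, 1.85 without integration, 1.88 in female and 1.28 in male cells, 1.32 with TMM factors and 1.98 as a mean over cells. Median co-detection (2.76) was 2.12 without thinning. In tenocyte-like cells of 6 M DTR, 4 of 5 members tested were at or under 0.5 in the main run, beside 1.42% of genes. With at least 20 CPM they were 3 of 3 (1.37% of genes), without a filter 5 of 7 (4.07%) and in male cells 5 of 5 (1.91%). Every other run gave 4 of 5. Of single members, Gbp5 endothelial-like over tenocyte-like in 6 M WT (1.56) turned to 0.795 in male cells, and Gbp2 for the same classes (1.06) to 0.655 in male cells and 0.853 with TMM factors. Gbp6 of 21 M B6 over 6 M WT (0.964) turned to 1.26 in male cells, 1.11 with TMM factors, 1.04 as a mean over cells, and 1.004 with at most 5% mitochondrial counts or without integration. No other single member changed side of 1. In all, 106 single-member values stayed inside their counting interval and 46 moved outside it. Another 1, Gbp5 in male cells as given above, crossed 1 from an interval that excluded 1. For the summed ratios, the member count and co-detection, 32 values stayed within their limits, 16 moved and 3 reversed. Leaving out the cells with the highest doublet scores, a limit chosen after seeing the data, moved no summed ratio outside its interval. Causes of these moves were not tested. Endothelial-like levels rest on 117 to 152 cells a library, and Gbp4, Gbp8 and Gbp9 in tenocyte-like cells are at the limit of detection.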

Other observations

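Gbp genes were also detected in the barcodes that the filter on cells left out: over all barcodes the members had 48073, 11673 and 19845 UMIs in the libraries 6 M WT, then 6 M DTR, then 21 M B6, against 42403, 9578 and 16249 UMIs in the cells kept. Of the inflammasome partners of the family in tenocyte-like cells, Casp4, the mouse sensor also called caspase-11, was at 144, 151 and 263 CPM. Nlrp3 had 108, 53 and 6 UMIs over the 5365, 2591 and 1014 cells of that class. These Nlrp3 counts are not scaled to total UMIs, so no order of the libraries is read from them. In endothelial-like cells Nlrp3 had 45 UMIs in 6 M WT, or 34.2 CPM, 3 UMIs in 6 M DTR, and 0 UMIs in 21 M B6, which allow up to 2.65 CPM.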
